A study of Homo sapiens with 12 samples.

Results

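The genes for the proteins of the mitochondrial ribosome were followed in HEK293 cells, an established line of embryonic kidney origin, that expressed RBMX, a nuclear RNA-binding protein, or carried an empty vector. Members were all gene symbols made of MRPL or MRPS, a number and at most 1 further letter. This gave 77 of the 25268 gene symbols of the table, 48 with an MRPL and 29 with an MRPS symbol, and no measured value entered the choice. The 4 groups were control total RNA, control polysomal RNA, RBMX total RNA and RBMX polysomal RNA, with 3 libraries in each. Control cells, labelled wild type, received the mock empty vector and RBMX cells received pCMV6-HIS-HA-RBMX, both by transient transfection, so that a culture can hold cells with and without the plasmid. All 12 libraries came from cells treated with cycloheximide, a drug that holds ribosomes on the mRNA, and all were made after a sucrose gradient. The polysomal sample came from the gradient fractions that hold mRNA with several ribosomes, and the total sample pooled a fixed share of every fraction of the gradient. Levels are FPKM, fragments scaled to transcript length and to the mapped fragments of the library, so that genes of unequal length can be set side by side. The sequencing depth is unknown, and no interval for counting error can be given. Replicates are the 3 numbered cultures of each vector, and p-values measure the spread between them. The protocol speaks of separate dishes for the RNA kinds and also of total RNA pooled from the gradient, so that a number may stand for 1 dish or a pair of dishes.

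Mitochondria keep a ribosome of their own, which makes the few proteins encoded in mitochondrial DNA, all of them parts of the respiratory chain and ATP synthase. Its ribosomal RNAs are transcribed in the organelle, while every one of its proteins is encoded in the nucleus, translated on cytosolic ribosomes and imported. Part of these proteins descend from bacterial ribosomal proteins and part are found only in mitochondria. The MRPL and MRPS symbols stand for the large and the small subunit, although later structures placed the products of MRPS18A and MRPS30 in the large subunit, and the product of MRPS36 has since been assigned to the oxoglutarate dehydrogenase complex. The members were kept by symbol here, and large and small subunit genes below mean those with an MRPL and an MRPS symbol.

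The labels could be checked on RBMX itself. Its FPKM lay between 87.4 and 148 in the 6 control libraries and between 1072 and 2073 in the 6 RBMX libraries, without overlap. The epithelial markers KRT8 and KRT18 and the filament genes VIM and NEFM were at 10.7 FPKM or more in every library. PTPRC, CD3E, HBB, ALB and PECAM1, markers of blood, liver and endothelium, were at 0.226 or less, while the fibroblast marker COL1A1 lay between 3.14 and 8.61. Over the 14676 genes whose FPKM averaged 0.5 or more, replicates of a group correlated with a Spearman's rho of 0.924 to 0.953. In the whole table no 2 libraries held identical values. A few libraries stood apart for the genes studied here. In RBMX polysomal 2, 66 of the 77 members lay below their own mean over the 12 libraries, and 48 of the 77 had their lowest value there. In both libraries of control culture 3, members with short coding sequences were high and members with long ones were low, and KRT8 lay at 68.0 and 63.4 FPKM against 146 to 188 in the other 10 libraries. The members' medians, and the differences of named members that changed most, are also given without these libraries.

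Promoters are shown first, since the members are transcribed from separate places in the genome and are described below as a group. In RefSeq on GRCh38.p14 the 77 genes lay on 21 chromosomes. A promoter window, 1 per gene, was given for 68 members, of which the stretch from 250 bases before to 20 bases after the start of transcription was searched, and none was given for MRPL2, MRPL10, MRPL13, MRPL15, MRPL21, MRPL23, MRPL35, MRPS28 and MRPS36. The letters searched were picked after the members' windows had been read, and both strands were searched. The element CCGGAAG, known as a binding sequence of ETS family factors, was found in 28 of 68 members, or 41.2%. It was found in 10.1% of the 27305 genes with a window and in 17.7% of the 10312 tested genes with one. AAGATGGC, known as a binding sequence of the factor YY1, was in 10 members, or 14.7%, against 1.96% of all windows and 3.05% of those of tested genes. These elements share the letters AAG and could overlap, which they did in 0 members, and 6 members held both apart. CCAAT was in 29.4% of members, 34.2% of all windows and 35.7% of those of tested genes. For TATAAA these shares were 2.94%, 11.5% and 5.36%, so that tested genes in general also held it less often than all windows. The remaining element searched was in 1 member, or 1.47%, against 1.3% of all windows and 2.17% of those of tested genes. A match says only that these letters stand in the window.

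The windows below, cut at 100 bases before and 20 bases after the start, are those of members named in the results, with MRPL52 and MRPS22 as cases that hold several copies. The first group holds CCGGAAG or AAGATGGC on either strand and the second holds neither within the part shown, and capitals mark these letters. The window of MRPS30 breaks off after the letters AAGATGG, so whether AAGATGGC stands across the cut is not shown.
MRPS12, chr19:38930844-38930963, plus strand: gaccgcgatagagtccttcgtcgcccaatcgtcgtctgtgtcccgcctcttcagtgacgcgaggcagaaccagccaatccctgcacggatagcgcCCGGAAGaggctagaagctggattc
MRPS18A, chr6:43687772-43687891, minus strand: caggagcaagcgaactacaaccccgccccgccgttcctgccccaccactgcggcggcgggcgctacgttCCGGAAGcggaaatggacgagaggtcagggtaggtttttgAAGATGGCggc
MRPL52, chr14:22829787-22829906, plus strand: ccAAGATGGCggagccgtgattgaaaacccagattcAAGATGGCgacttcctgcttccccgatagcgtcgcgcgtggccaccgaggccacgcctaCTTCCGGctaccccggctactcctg
MRPL33, chr2:27771619-27771738, plus strand: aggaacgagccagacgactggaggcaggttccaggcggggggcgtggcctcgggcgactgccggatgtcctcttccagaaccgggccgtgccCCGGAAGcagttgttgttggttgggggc
MRPS22, chr3:139343894-139344013, plus strand: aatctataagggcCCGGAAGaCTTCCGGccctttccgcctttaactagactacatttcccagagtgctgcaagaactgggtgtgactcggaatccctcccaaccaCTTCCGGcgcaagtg
MRPL41, chr9:137551779-137551898, plus strand: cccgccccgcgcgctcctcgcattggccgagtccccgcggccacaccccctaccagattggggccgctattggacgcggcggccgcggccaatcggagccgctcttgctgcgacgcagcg
MRPL44, chr2:223957363-223957482, plus strand: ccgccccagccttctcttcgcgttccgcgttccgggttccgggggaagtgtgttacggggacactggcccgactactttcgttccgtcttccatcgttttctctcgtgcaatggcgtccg
MRPS30, chr5:44808847-44808966, plus strand: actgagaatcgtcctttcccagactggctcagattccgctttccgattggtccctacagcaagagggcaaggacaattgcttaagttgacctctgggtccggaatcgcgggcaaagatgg

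MRPL52 carries AAGATGGC at 2 places of the stretch shown and CCGGAAG in the opposite orientation near the start, and MRPS22 has CCGGAAG facing its reverse complement with 1 base between them. MRPL33, which stands out among the polysomal results, has CCGGAAG close to its start. MRPL46 and MRPS11 are transcribed away from each other, and their full windows overlap on chromosome 15, at chr15:88467339-88467638 on the minus strand and chr15:88467458-88467757 on the plus strand.

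All 77 members were detected in every library. Their mean FPKM over the 12 libraries ran from 16.0 to 376 with a median of 65.5, against a median of 12.0 over the 14676 genes that were tested, those whose FPKM averaged 0.5 or more. All 77 passed that filter, and all 77 had a mean above 10 FPKM. The 48 large subunit genes had a median of 69.2 FPKM and the 29 small subunit genes one of 63.2. The 78 tested genes for cytosolic ribosomal proteins had a median of 541 FPKM, and the 48 further genes of mitochondrial translation one of 20.8. Members therefore lay between the cytosolic ribosome and the factors that serve the mitochondrial one.

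MRPL51, a protein found only in mitochondrial ribosomes, had the highest mean, 376 FPKM ± 57.0 (SD, n = 12). Next came MRPL33, a short homolog of a bacterial large subunit protein, at 342 ± 113, and MRPL12, the stalk protein present in several copies per ribosome, at 263 ± 19.9. MRPL20, a protein of early large subunit assembly in bacteria, followed at 222 ± 22.4 and MRPS34 at 218 ± 16.7. The lowest 5 were MRPL19 at 16.0 ± 1.46 FPKM, MRPL1 at 19.4 ± 3.03, MRPL22 at 21.0 ± 2.80, MRPS31 at 22.2 ± 4.13 and MRPL30 at 22.7 ± 2.91. The order is coarse: in 71 of the 76 pairs of neighbours the gap was smaller than the first gene's own SD on the log2 scale. MRPL12 and MRPL10, which together form the stalk and its base, differed in level, with MRPL10 at 58.9 ± 3.55 FPKM. The paralogs MRPS18A, MRPS18B and MRPS18C were at 65.5 ± 5.00, 74.4 ± 8.72 and 27.7 ± 5.61 FPKM. Among members the coefficient of variation over the 12 libraries ran from 4.45% to 33.1% with a median of 10.7%, against a median of 13.9% over all genes tested and 26.3% over the cytosolic ribosomal protein genes. The highest value belonged to MRPL33.

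**Figure D1:**
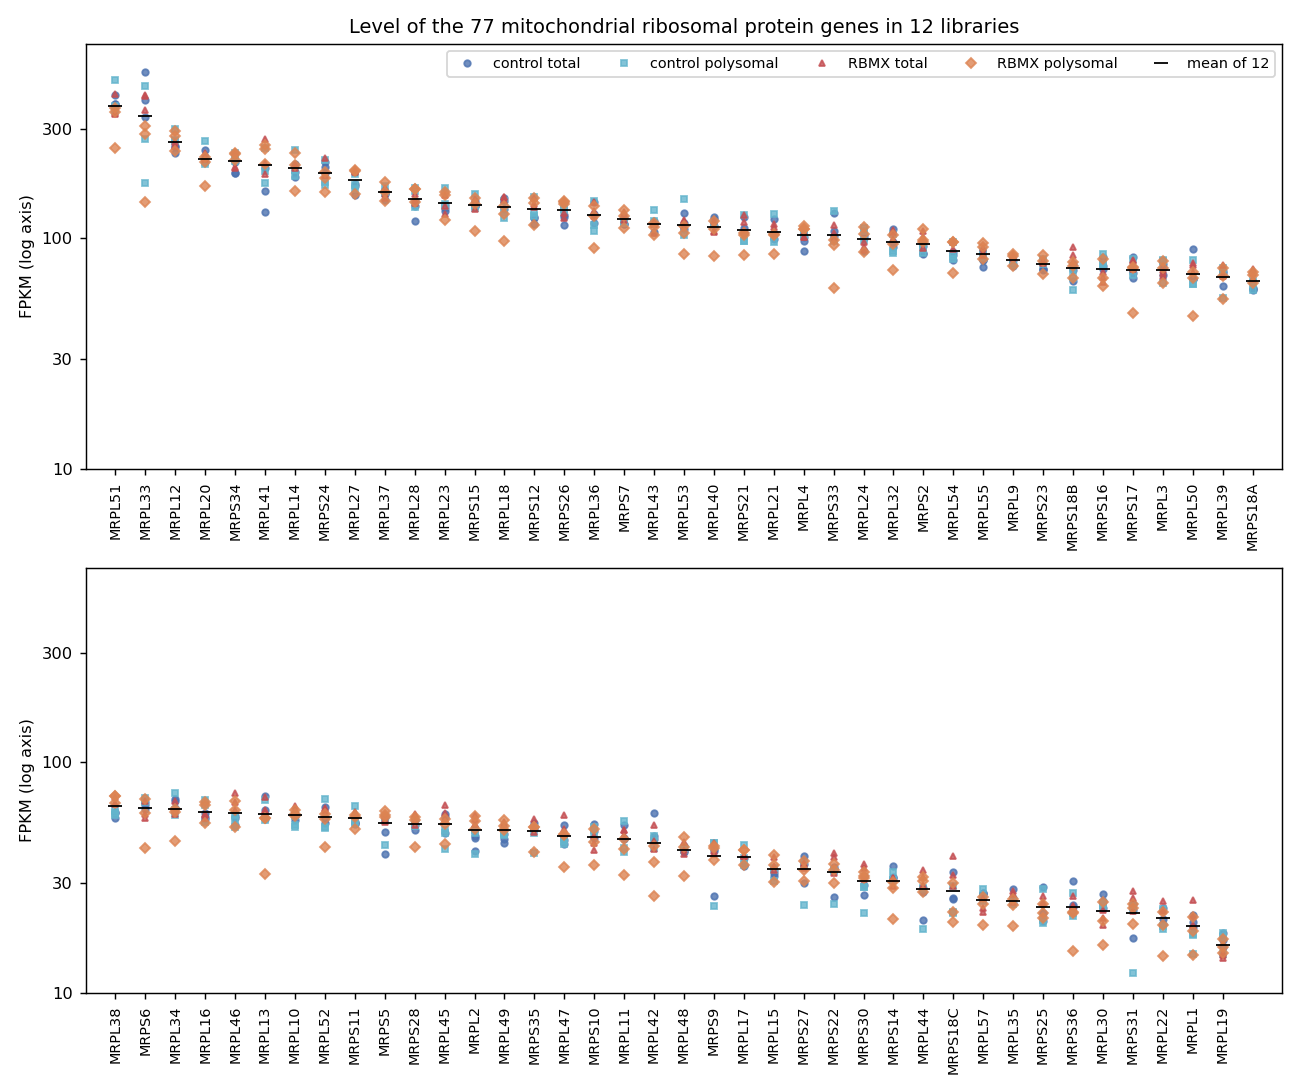
FPKM on a log axis for the 77 members, ordered by their mean over 12 libraries (black dash), with a point for each library coloured by group. Means run from 376 for MRPL51 to 16.0 for MRPL19, groups lie close together for nearly every gene, and MRPL33 and MRPL41 show wide spreads.

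For 34 of the 77 members the annotation (GENCODE 29) has an exon of another gene over an exon of theirs, and 34 members have annotated pseudogenes, 75 in all. The library kit does not mark the strand, so that reads of a member and of an overlapping gene cannot be told apart, and reads shared with a pseudogene can be counted to either copy. Among the members discussed below this includes MRPS12, which overlaps SARS2 on the opposite strand, MRPS18C, which overlaps ABRAXAS1, MRPL19, which overlaps GCFC2, MRPL2, which overlaps KLC4, and MRPL42, MRPS17, MRPS16, MRPS31, MRPS33 and MRPS36, which have 3 to 5 pseudogenes each. MRPL4, MRPL12, MRPL28, MRPL30, MRPL38, MRPL44, MRPS18A and MRPS22 also overlap another gene, and MRPL22, MRPL45, MRPS5 and MRPS18B have 1 or 2 pseudogenes each. MRPL33, MRPL41, MRPS27 and MRPS30 have neither.

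The first comparison set RBMX against control cells in total RNA, which is whether raised RBMX goes with another amount of these mRNAs. No member passed the threshold of an adjusted p of 0.05 (limma on log2(FPKM + 1), Benjamini-Hochberg over the 14676 genes), and the members' adjusted p ran from 0.176 to 0.987. Over all genes 24 passed, or 0.164%. Members were on balance slightly higher in RBMX cells: the median log2 difference was 0.08, or 1.05-fold, 57 of 77 were above 0 against 49.7% of all genes, and the median of all genes tested was 0. Both subunits were alike in this, with 35 of 48 large and 22 of 29 small subunit genes above 0. The size of this tilt depended on the scaling between libraries. Quantile normalization moved the median of all genes to -0.03 and that of the members to -6.22e-05, so that the members lay 0.03 above all genes, 49 of 77 above the all-gene median and 38 above 0. After median-ratio rescaling they lay 0.08 above all genes, with 57 of 77 above the all-gene median. At an unadjusted p under 0.05 stood 15 members, or 19.5%, against 18.8% of all genes. Of these 11 were higher in RBMX cells and 4 lower.

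In 17 members the 3 RBMX total libraries all lay above the 3 control libraries, against 11.9% of all genes, and in 5 all lay below, against 15.4%. With 3 libraries against 3 the smallest two-sided exact permutation p is 0.1, which each of these 22 members reached. The members with all RBMX values higher included the stalk base gene MRPL10, the decoding centre gene MRPS12, MRPL44, MRPL46, MRPL2 and the paralogs MRPS18A and MRPS18B.

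MRPL41, whose product is specific to mitochondria and has been linked to apoptosis, had the largest difference in total RNA. Its FPKM was 130, 203 and 160 in the control and 190, 212 and 271 in the RBMX libraries. The second control library lay above the lowest RBMX library, so the groups overlapped, and the log2 difference was 0.45 ± 0.208 (SE, limma, adjusted p = 0.308), or 0.30 without control total 1. MRPL44, a relative of double-strand RNA nucleases that sits on the large subunit, had control values of 27.3, 28.4 and 20.7 and RBMX values of 31.8, 34.01 and 29.4. All RBMX values were higher, and the log2 difference was 0.32 ± 0.134 (SE, limma, adjusted p = 0.282). MRPL2, a conserved protein of the catalytic core, was at 47.95, 47.0 and 41.1 FPKM in control and at 56.5, 59.1 and 54.1 in RBMX libraries. The groups did not overlap, at a log2 difference of 0.31 ± 0.0773 (SE, limma, adjusted p = 0.176). In MRPL44 and MRPL2 control total 3 was the lowest of the 6 libraries, and without it the differences were 0.18 and 0.25.

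At the other end stood MRPL30, MRPL19 and MRPS16, all with bacterial homologs. MRPL30 had 23.2, 25.003 and 26.8 FPKM in control and 19.7, 21.0 and 22.9 in RBMX total libraries. Without overlap between the groups, its log2 difference was -0.23 ± 0.0823 (SE, limma, adjusted p = 0.237). MRPL19 differed by -0.21 ± 0.0661 (SE, limma, adjusted p = 0.204), with 15.8, 18.1 and 16.8 FPKM against 14.1, 14.9 and 14.5. MRPS16 was at 73.5, 76.0 and 82.9 against 64.8, 67.8 and 71.8 FPKM, again without overlap, at a log2 difference of -0.18 (limma, adjusted p = 0.254).

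Among the members picked for their roles, MRPS12, part of the decoding centre, had 124, 116 and 123 FPKM in control and 142, 137 and 150 in RBMX total libraries. The groups were apart by a log2 difference of 0.24 ± 0.0616 (SE, limma, adjusted p = 0.180). MRPS18A and MRPS18B were also apart, at 0.22 and 0.24, and MRPS18C overlapped, at 0.25, or 0.37 without control culture 3. The stalk gene MRPL12 had a log2 difference of 0.06 and overlapping groups, as did MRPL3 at -0.06, MRPL11 at 0.03, MRPL37 at 0.03 and MRPL36 at 0.04. Without control culture 3 these 5 lay between -0.10 for MRPL3 and 0.12 for MRPL36. MRPS5, MRPS22 and MRPS30 were at 0.22, 0.24 and 0.21, with control culture 3 low in each and groups that overlapped, and without that culture they were at 0.09, 0.11 and 0.14. The 95% intervals bound these differences: a member's interval reached a median of 0.193 to either side on the log2 scale, and for all 77 members it lay within 1, that is within a 2-fold difference. Without both libraries of control culture 3, 59 of 77 members were above 0, against 46.5% of all genes, and the median was 0.08. At an unadjusted p under 0.05 stood 20 members, against 25.5% of all genes, and 0 passed the threshold, against 40 genes of the whole table.

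In polysomal RNA the comparison of RBMX with control cells turned on 1 library. No member passed the threshold (limma, adjusted p from 0.403 to 1), against 0.0477% of all genes, and the median log2 difference was -0.04, with 30 of 77 above 0 against 49.5% of all genes. At an unadjusted p under 0.05 stood 1 member, MRPL38 at 0.20, against 11.7% of all genes. Without RBMX polysomal 2 the median was 0.08 and 56 of 77 members were above 0, against 51.3% of all genes. Again 0 passed, and 1 had an unadjusted p under 0.05, against 5.95% of all genes. The direction of the members' median in polysomal RNA was thus set by that library. In all libraries, 7 members were higher in RBMX cells without overlap, against 10.0% of all genes, namely MRPL2, MRPL4, MRPL38, MRPL49, MRPS2, MRPS26 and MRPS30. Lower without overlap was 1 member, MRPS14, against 12.5%.

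MRPS30 had the largest positive difference in polysomal RNA. It was at 28.6, 28.8 and 22.1 FPKM in control and at 33.6, 32.2 and 31.5 in RBMX polysomal libraries. The RBMX values were all higher and control culture 3 was far below the other controls, and the log2 difference was 0.29 ± 0.118 (SE, limma, adjusted p = 0.425). MRPL44 followed at 0.26 and MRPL2 at 0.24. Without control polysomal 3 the differences were 0.17 for MRPS30, 0.07 for MRPL44 and 0.14 for MRPL2. MRPL2, at 50.6, 49.4 and 40.0 against 58.5, 55.6 and 51.3 FPKM, was thus higher in all RBMX libraries of both fractions, as were MRPL38 and MRPL49, and MRPS14 was lower in all of them. For MRPS14 the groups nearly touched in total RNA, with a highest RBMX value of 31.5944 and a lowest control value of 31.5954 FPKM. How many of all genes were apart in both fractions was not counted.

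The largest negative differences, in MRPS33, MRPL42 and MRPL13, were in large part those of RBMX polysomal 2. MRPS33, a small protein found only in mitochondria, had 98.5, 97.5 and 131 FPKM in control and 93.6, 60.9 and 98.1 in RBMX polysomal libraries. The log2 difference of -0.39 ± 0.227 (SE, limma, adjusted p = 0.509) became -0.17 without RBMX polysomal 2 and -0.25 without control polysomal 3. MRPL42 was at 45.5, 42.6 and 47.8 against 36.9, 26.3 and 43.4 FPKM. The lowest of its values was again that of RBMX polysomal 2, and the log2 difference of -0.37 became -0.17 without it. MRPL13, a conserved large subunit protein, was at 56.5, 58.0 and 68.8 against 57.5, 32.8 and 57.4 FPKM. Apart from the one low library its RBMX values lay within the control range, and -0.35 became -0.08. The 95% intervals were wider here than in total RNA, reaching a median of 0.356 to either side, and in 76 of 77 members they lay within a 2-fold difference. The exception was MRPL33, from -1.40 to 0.90.

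**Figure D2:**
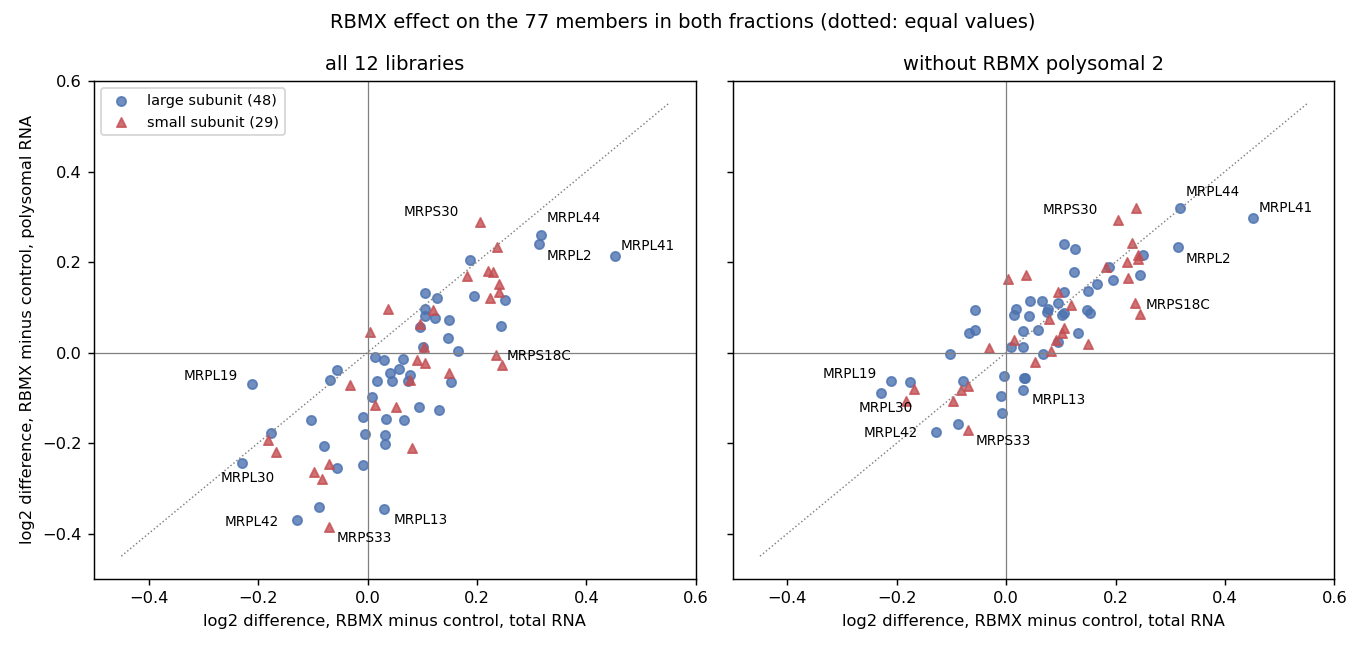
Log2 difference between RBMX and control cells for the 77 members, in total RNA (x axis) and in polysomal RNA (y axis), with all 12 libraries (left) and without RBMX polysomal 2 (right); the fractions come from the same cultures. On the left most points lie below the dotted line of equal values, and on the right they lie around it, with 56 of 77 above 0 on the y axis.

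The next question was whether the members' polysomal and total levels differed in another way than those of all genes. FPKM are relative within each library, and the total sample also holds the polysomal fractions. The part of an mRNA found on polysomes was therefore not measured. In control cells the log2 difference of polysomal against total RNA had a median of 0.01 over the members and of 0 over all genes. Of the members 39 of 77 were above 0, against 49.8% of all genes. The median of the 78 cytosolic ribosomal protein genes was -0.65, with 77 of 78 below 0. The mRNAs of the cytosolic ribosome carry a pyrimidine tract at their 5′ end, through which cells can hold them back from polysomes. The part of this tract in the values here was not tested. No member passed the threshold (limma, adjusted p from 0.597 to 1), against 0.0818% of all genes, of which RPSA was the one cytosolic ribosomal protein gene. At an unadjusted p under 0.05 stood 1 member, MRPL1, or 1.3%, against 8.04% of all genes and 58 of the 78 cytosolic genes. The polysomal value was higher in all 3 control cultures in 18 members, against 24.2% of all genes, and lower in all 3 in 14, against 22.0%. The medians of the subunits were 0.00013 for the large and 0.02 for the small one. Without control culture 3, 35 of 77 members were above 0, against 55.5% of all genes, and 14 had an unadjusted p under 0.05, against 25.6% of all genes. Then 0 members passed the threshold, while 199 genes of the whole table passed in place of 12.

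In RBMX cells the median was -0.11, with 18 of 77 members above 0 against 49.3% of all genes. This again rested on the second culture. The median of polysomal minus total was 0.02 in RBMX culture 1, -0.34 in culture 2 and 0.0021 in culture 3, and -0.0031, -0.01 and 0.02 in the control cultures. Without RBMX polysomal 2 the median in RBMX cells was 0.0024 and 39 of 77 were above 0, against 53.4% of all genes. At an unadjusted p under 0.05 stood 6 members, against 18.4% of all genes, and 0 passed, while 42 genes of the whole table passed in place of 196. Quantile normalization of all 12 libraries moved the median of all genes to 0.04 and that of the members to -0.01, so that the members lay 0.06 below all genes and 26 of 77 were above the all-gene median. No member passed the threshold (limma, adjusted p from 0.202 to 0.957), against 1.34% of all genes, and 1 had an unadjusted p under 0.05, MRPS18C, against 23.0% of all genes. All 3 RBMX cultures had the polysomal value higher in 5 members, against 28.2%, and lower in 22, against 27.2%. The cytosolic ribosomal protein genes had a median of -0.66, with 78 of 78 below 0, and lay below the members' median in all 6 cultures. In the paired fit, with the culture as a replicate block, 6 genes of the whole table passed in control cells in place of 12, and 4 in RBMX cells in place of 196, and again 0 members in either. At an unadjusted p under 0.05 the paired fit had 8 members in control cells in place of 1, against 21.0% of all genes, and 1 in RBMX cells, against 21.9%.

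MRPL33 was the member whose polysomal level was lowest against its total level in both kinds of cells. Its total values were 398, 337 and 530 FPKM in control and 361, 418 and 418 in RBMX cells, and its polysomal values were 174, 270 and 460 in control and 310, 144 and 286 in RBMX cells. In each of the 6 cultures the polysomal value was the lower one, with log2 differences of -1.19, -0.32 and -0.20 in the control and of -0.22, -1.54 and -0.55 in the RBMX cultures, in order of culture number. The mean log2 difference was -0.57 ± 0.390 (SE, limma, adjusted p = 0.783) in control and -0.77 ± 0.309 (SE, limma, adjusted p = 0.219) in RBMX cells, and -0.42 in the latter without RBMX polysomal 2. In control cells it was -0.23 without control polysomal 1 and -0.93 without control polysomal 3. Leaving out 1 library keeps the other library of its culture in, and without both libraries of control culture 3 the difference was -0.75. MRPL33 has the shortest coding sequence of all members, 195 bases.

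Further members were lower on polysomes in all 6 cultures, although none passed the test. These were MRPL1, MRPL22, MRPL32, MRPL42, MRPS18B, MRPS18C and MRPS36. The share of all genes that were lower in all 6 was not counted, so the list is a description only. Some single differences were close to none, at -0.0063 for MRPL22 in control culture 3 and -0.012 for MRPL1 in RBMX culture 1. MRPS18C was at 25.4, 25.8 and 33.4 FPKM in total and 22.2, 22.4 and 29.02 in polysomal RNA of control cells, a log2 difference of -0.19 ± 0.156 (SE, limma, adjusted p = 0.839). In RBMX cells it had 32.5, 39.2 and 29.1 in total and 29.9, 20.3 and 22.5 in polysomal RNA, at -0.47 ± 0.175 (SE, limma, adjusted p = 0.202) and -0.35 without RBMX polysomal 2. Its paralog MRPS18B, at -0.11 and -0.20, and MRPS18A, at 0.06 and -0.04, differed less between the fractions. MRPL1, a protein of the stalk that releases the used tRNA, had -0.27 in control and -0.28 in RBMX cells, and -0.14 in the latter without RBMX polysomal 2. MRPL45, which binds the inner membrane near the tunnel exit, had -0.23 in control and -0.24 in RBMX cells. Its control value was -0.15 without control polysomal 3 alone and -0.23 without both libraries of control culture 3. Its value in RBMX cells was -0.13 without RBMX polysomal 2. MRPL13 had -0.43 in RBMX cells and -0.06 in control cells, and -0.17 in RBMX cells without RBMX polysomal 2.

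The members highest on polysomes had small differences. MRPL41 had 174, 197 and 247 FPKM in polysomal RNA of control cells against 130, 203 and 160 in total RNA, a log2 difference of 0.33 ± 0.211 (SE, limma, adjusted p = 0.763) that was positive in 2 of 3 cultures. Without control total 1 it was 0.17. MRPL28 and MRPS34 had 0.20 and 0.19, positive in all 3 control cultures. MRPL28 had 0.11 without control total 3 alone and 0.20 without both libraries of control culture 3. In RBMX cells the largest were MRPL19 at 0.13, MRPL24 at 0.12 and MRPS26 at 0.12. With 1 library left out they ranged from 0.07 for MRPL19, 0.05 for MRPL24 and 0.07 for MRPS26 up to 0.23 for MRPL24 without RBMX polysomal 2. MRPL4, MRPS5 and MRPS26 were higher on polysomes in all 6 cultures, by 0.13, 0.10 and 0.15 in control and 0.10, 0.06 and 0.12 in RBMX cells, and without control culture 3 the control values were 0.06, 0.10 and 0.09. How many of all genes were higher in all 6 was not counted. The stalk gene MRPL12 had 0.17 in control and 0.07 in RBMX cells, with 0.08 in control cells without control culture 3 and 0.16 in RBMX cells without RBMX polysomal 2.

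**Figure D3:**
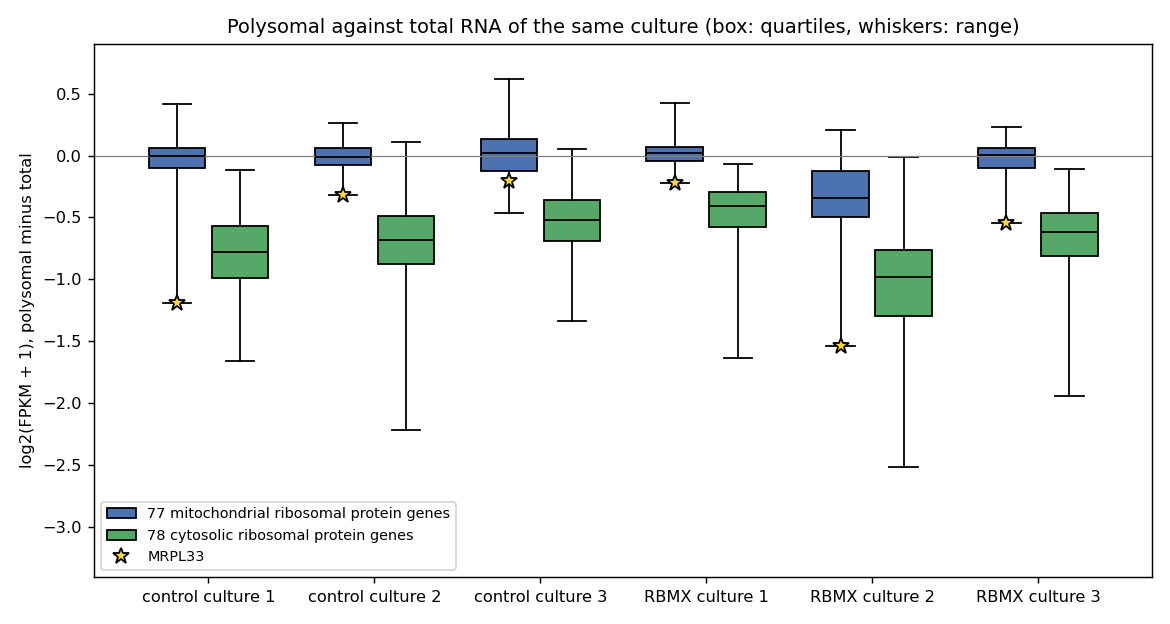
Polysomal minus total log2(FPKM + 1) in each of the 6 cultures for the 77 members (blue) and the 78 cytosolic ribosomal protein genes (green), as boxes of quartiles with whiskers to the range; the star is MRPL33. The members' medians lie at 0.02 or nearer to 0 in 5 cultures and at -0.34 in RBMX culture 2, and the cytosolic medians lie below them in all 6.

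An interaction term over all 12 libraries asked whether RBMX went with another difference in polysomal than in total RNA. No member passed (limma, adjusted p = 1.00 for all 77), against 0.0204% of all genes, and 0 members had an unadjusted p under 0.05, against 0.600%. The median of this difference was -0.10 over the members, with 8 of 77 above 0 against 49.2% of all genes, and it was -0.01 over the cytosolic ribosomal protein genes. Without RBMX polysomal 2 the members' median was -0.01 and 36 of 77 were above 0, against 53.1% of all genes. The median of the cytosolic ribosomal protein genes was then 0.15. After quantile normalization of all 12 libraries the members lay 0.05 below the all-gene median of 0.01, with 22 of 77 above it. The largest negative values, MRPL13 at -0.38, MRPS33 at -0.32 and MRPS17 at -0.29, became -0.11, -0.10 and -0.08 without that library. The largest positive values were MRPL19 at 0.14, MRPS30 at 0.08 and MRPS27 at 0.06, which without control polysomal 3 became 0.06, -0.04 and -0.13. In 75 of the 77 members the 95% interval lay within a 2-fold difference, and the exceptions were MRPL13 and MRPL33.

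RBMX polysomal 2 could be described further through its members. Their median deviation from their own 12-library mean was -0.25 on the log2 scale, against -0.05 to 0.09 in the other 11 libraries, and the median of all genes in that library was -0.02. The FPKM summed over the 77 members were 5687 there and 6529 to 7520 in the others. The cytosolic ribosomal protein genes were low in it too, with a median deviation of -0.67, against -0.43 to -0.02 in the other 5 polysomal libraries. The 48 further genes of mitochondrial translation had a median of -0.05.

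**Figure D4:**
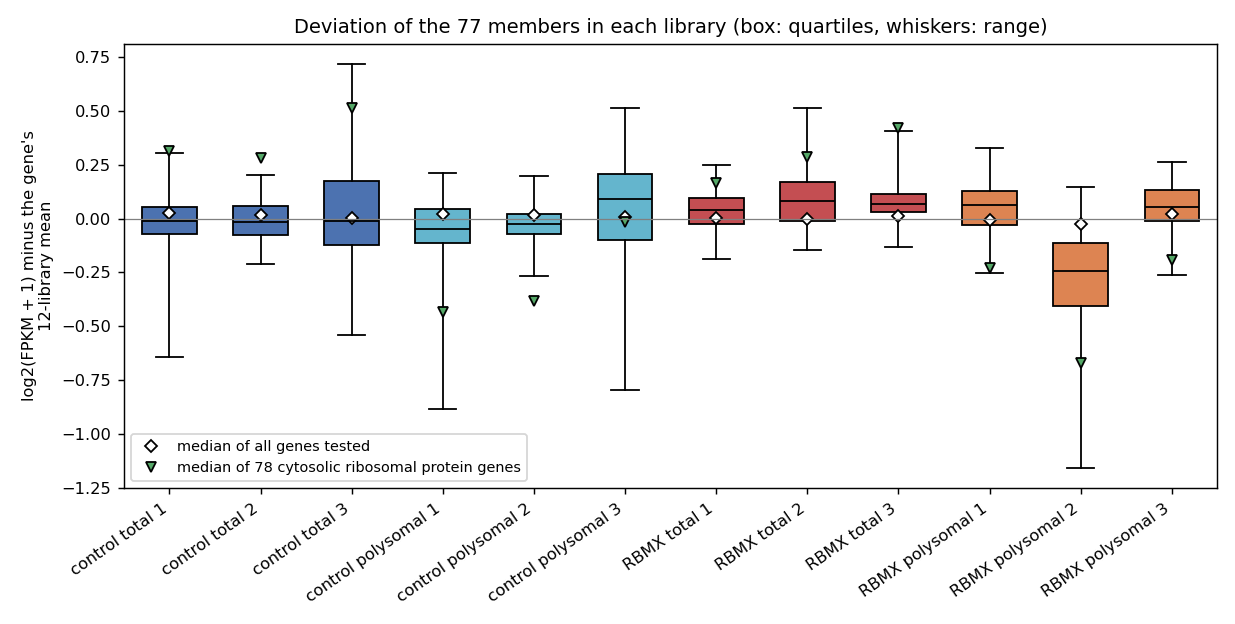
Deviation of each member from its own mean over 12 libraries, on the log2(FPKM + 1) scale, as boxes of quartiles with whiskers to the range, with the medians of all genes tested (diamonds) and of the cytosolic ribosomal protein genes (triangles). RBMX polysomal 2 has a members' median of -0.25 and the other 11 libraries lie between -0.05 and 0.09, and its box and those of control culture 3 are the widest.

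The deviations followed the length of the coding sequence, which ran from 195 bases in MRPL33 to 1317 in MRPS30 with a median of 582 over the members. In control polysomal 3 the members' deviation correlated with the log2 coding length at r = -0.81 (Spearman's rho -0.82, 77 genes of one library, which are not independent replicates). The slope was -0.33 on the log2 scale for each doubling of the length, and in control total 3 it was -0.24 at r = -0.67. In RBMX polysomal 2 the sign was opposite, with a slope of 0.24 at r = 0.62. Members shorter than the median had a median deviation of 0.20 in control polysomal 3 and of -0.39 in RBMX polysomal 2, and longer ones had -0.10 and -0.13. In the other 9 libraries the slope lay between -0.06 and 0.11. Among the other genes with a coding length, slopes had the same signs and were smaller, at -0.10 in control polysomal 3, -0.11 in control total 3 and 0.13 in RBMX polysomal 2. Coding length also went with level, at r = -0.31 over the members and -0.26 over the 12522 tested genes with a coding length. The part of library preparation, RNA quality or the cells themselves in this trend was not tested.

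**Figure D5:**
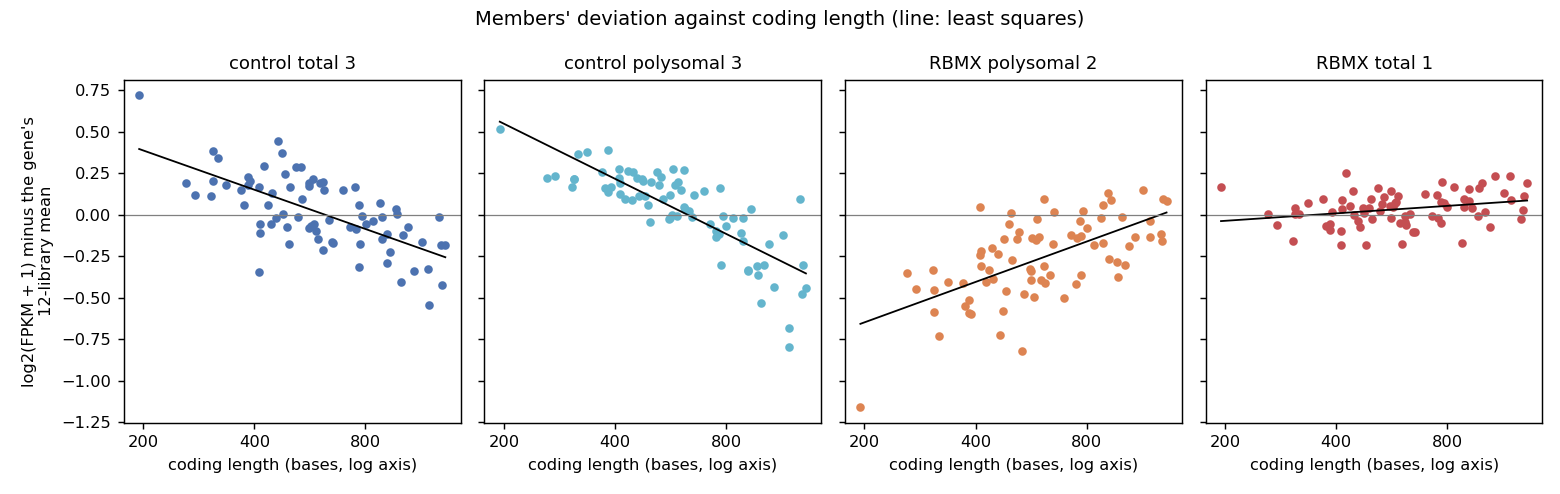
Deviation of the 77 members from their own 12-library mean against coding length (log axis) in control total 3, control polysomal 3, RBMX polysomal 2 and, for comparison, RBMX total 1, with least squares lines. Slopes are -0.24, -0.33, 0.24 and 0.04 per doubling of length, so that short members are high in the libraries of control culture 3 and low in RBMX polysomal 2.

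The trend bears on single members. MRPL33 had its highest total value, 530 FPKM, in control total 3 and its lowest polysomal value, 144, in RBMX polysomal 2. At the long end, MRPS30 had its lowest value, 22.1 FPKM, in control polysomal 3, as did MRPL44 at 18.9, MRPS31 at 12.2, MRPS27 at 24.1 and MRPS22 at 24.2. Comparisons that set RBMX against control cells in these genes hold that library on the control side.

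The other genes of mitochondrial translation, 48 genes whose symbols the rule did not take, also had 0 calls in all 5 comparisons (limma). At an unadjusted p under 0.05 stood 6, 5, 3, 6 and 0 of them in the order followed above. These are 12.5%, 10.4%, 6.25%, 12.5% and 0%, against 18.8%, 11.7%, 8.04%, 23.0% and 0.600% of all genes. They comprise 6 further mitoribosome proteins, 21 assembly factors, 16 translation factors and 5 genes of mitochondrial transcription. In total RNA, 35 of 48 were above 0 in RBMX cells, against 49.7% of all genes, with a median log2 difference of 0.10. In polysomal RNA 33 of 48 were above 0, against 49.5%, with a median of 0.07. The largest in total RNA were the assembly factor METTL17 at 0.47, the elongation factor GFM1 at 0.42 and the mitochondrial RNA polymerase POLRMT at 0.38 (limma, adjusted p = 0.321, 0.174 and 0.319). GFM1 had 6.79, 5.94 and 6.28 FPKM in control and 9.5002, 9.20 and 7.81 in RBMX total libraries, without overlap. The initiation factor gene MTIF3 was the lowest in polysomal RNA, at -0.47, with its smallest value, 17.6 FPKM, in RBMX polysomal 2. Polysomal against total RNA gave medians of -0.06 in control and in RBMX cells, and the peptide release factor genes MTRF1 and MTRF1L were among the lowest, at -0.39 and -0.45 in control and -0.60 and -0.39 in RBMX cells.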

How the data were processed

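RNA of HEK293 cells was sequenced from 6 cultures, 3 per vector, each with a total and a polysomal library. The authors deposited FPKM values for 25268 gene symbols in 12 libraries. The submitters' processing notes name CASAVA 1.8, TopHat2 2.0.13, Cufflinks 2.2.1, Cuffnorm and hg19, without saying which step used what, and Cuffnorm can scale libraries further. All 12 columns were matched to samples by the sample descriptions, and 0 columns were left unused. The members and gene lists were chosen with earlier results of these data known.

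FPKM values are not counts, and steps in the low values did not give whole reads. Values were analysed as log2(FPKM + 1) in R 4.3.3 with limma 3.58.1 (lmFit, eBayes with an intensity trend, two-sided) for the 14676 genes whose FPKM averaged 0.5 or more, and p-values were adjusted over all of them by the Benjamini-Hochberg method at 0.05. RBMX was compared with control in each fraction on 6 libraries, polysomal with total RNA within each vector on 6, and the difference of effects on all 12. The fits were tested on simulated data. The values printed come from fits without a block, and a fit with the culture number as a block was an alternative. Total and polysomal RNA of one number were taken there as a pair, because the protocol pools the total sample from the gradient fractions, although it also names separate dishes. Their deviations from the group means correlated at 0.0018 to 0.31 over all genes. Over the members the correlations were 0.51, 0.74 and 0.85 in control cultures 1, 2 and 3. In RBMX cultures 1, 2 and 3 they were -0.28, -0.23 and 0.41.

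Members named are the 5 highest and 5 lowest by mean FPKM, the 3 largest differences per direction in each comparison and a set chosen by role. Coding lengths came from GENCODE 29 (1 transcript per gene) and promoter windows from RefSeq GRCh38.p14. Plots used Python 3.11.15 and matplotlib 3.10.9.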

Additional observations from a re-analysis of the deposited data

How the results depend on the processing

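Alternatives were another pseudocount, 3 other filters, 2 scalings, a fit without the intensity trend, a replicate block, a fit over all 12 libraries and leaving out each library in turn. A correction for coding length and GC content and fits without control culture 3 or RBMX culture 2 were chosen after seeing the data. In all 96 alternative fits 0 members passed the threshold, the replicate block included, so that the block changed no call among members. Across all genes the deviations of control and RBMX libraries of one replicate number correlated at -0.0659 to 0.0285 over the 2 fractions. Such values cannot decide whether the numbers pair them, since total and polysomal libraries of one culture also correlated as low as 0.0018. Across the members the correlations of control with RBMX libraries ran from -0.40 in polysomal replicate 1 to 0.56 in total replicate 1. Over all genes the block gave 13 calls in total and 3 in polysomal RNA in place of 24 and 7, and 5 in place of 3 for the difference of effects.

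The members' median log2 difference in total RNA, 0.077, was -6.22e-05 after quantile normalization, where the median of all genes was -0.0349 and the members thus lay 0.0348 above it, and ranged from 0.0479 to 0.0857 when 1 library was left out. For the difference of effects the median, -0.103, was 0.0021 without RBMX culture 2 and 0.0024 without control culture 3 and RBMX culture 2. The named members followed here were the 3 largest per direction in each comparison, picked from these same data, so a kept direction says little. The other filters, the replicate block and the fit over all 12 libraries leave a member's log2 difference as it was. Of 450 values of named members 446 kept their direction. The others, all in the difference of effects and with 1 library left out, were MRPS30, which ranged from -0.0368 to 0.151, and MRPS27, which ranged from -0.128 to 0.168 (the lower value of both without control polysomal replicate 3); MRPS27 was -0.0236 without control total replicate 2 and -0.0063 without RBMX polysomal replicate 3. With 3 cultures per group and an unknown number of fragments, differences inside the intervals given were not detectable here.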
